A study of Mus musculus with 10 samples.

Results

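The cytosolic ribosomal protein genes were examined in mouse T cells that had, or had not, been cultured with B lymphoma cells expressing the Epstein-Barr virus proteins LMP1 and LMP2A. Members were all genes whose symbol is Rpl or Rps followed by a number, with an optional letter, x or l suffix. Rps6k kinases and pseudogenes were left out, and a gene with several probe sets was represented by the one with the highest mean over the 10 arrays. This rule, which uses no difference between groups, gave 46 members among 18193 genes: 24 of the large subunit and 22 of the small subunit. A further 28 symbols of the same form, among them Rpl3, Rpl5, Rpl10, Rpl36a and Rpl36al, stood only on probe sets that list several gene symbols, and were not measured here. Rpl10l was not analysed here.

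Cytosolic ribosomes translate the mRNA of the nucleus, and each is built of a large and a small subunit in which ribosomal RNA is held by proteins encoded by single, strongly expressed genes. Most of these mRNAs begin with a run of pyrimidines at the cap, the 5′ terminal oligopyrimidine (TOP) element, through which the kinase complex mTORC1 and the RNA-binding protein LARP1 set how much of the mRNA is translated. T cells leaving the resting state make many ribosomes, and much of this control acts on translation, which an array of mRNA levels does not read. A few members are paralogs, marked by an l, of a classical ribosomal protein and are active in particular tissues or conditions.

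Each of 5 groups had 2 arrays, each made from sorted cells of wild-type C57BL/6 origin. Naive CD4+ and naive CD8+ T cells were TCRβ+ CD62L+ CD44- cells of the spleen. CD4+ TEM and CD8+ TEM cells (effector-memory) were sorted on day 25 after naive cells of each kind had been grown in low-dose IL-2 on irradiated lymphoma cells of the type above, which were added again every week. The CD4+ memory group also came from day 25 and is labelled CM. The design asks how far CD4+ and CD8+ T cells change alike on becoming effector-memory cells. The records also carry entries on germinal center B cells, on a Foxo1 status that differs between replicates, and on an edited lymphoma line, none of which describes T cells, and these were set aside. Whether replicates came from separate mice is not stated, so the p-values measure the spread between these arrays, which may be technical. The 2 naive CD8+ arrays differ in Xist, at 12.51 and 3.97. The spread in that group may therefore include a difference between animals, also in their sex, which was not tested.

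Cd4 and Cd8b1 matched the labels. Cd4 lay between 11.5 and 11.89 on the 6 CD4+ arrays. On the 4 CD8+ arrays it read 4.3 and 4.1 in naive and 6.51 and 6.89 in TEM cells, and was called higher in CD8+ TEM cells (2.5). Cd8b1, the β chain of CD8, lay between 4.94 and 5.63 in CD4+ and between 10.98 and 11.54 in CD8+ cells. Cd8a, the α chain, read 12.81 to 12.98 in CD8+ cells, but within CD4+ cells it read 7.67 and 8.17 in TEM against 5.16 and 4.99 in naive and 3.93 and 5.38 in memory cells, and was called higher in CD4+ TEM than in naive CD4+ cells (2.85, adjusted p = 0.00126). The mean of 8 measured B cell markers was 4.74 and 4.78 in naive CD4+ cells, 6.98 and 7.09 in CD4+ TEM cells, 7.65 and 8.03 in memory cells, 5.32 and 6.58 in naive CD8+ cells, and 6.8 and 7.15 in CD8+ TEM cells. Single markers differed: 4 of the 8 were called higher and 1 lower in both CD4+ TEM (all genes: 16.4% and 10.1%) and CD8+ TEM cells (20.9% and 17.2%). The lower one was Ighm, at 11.36 and 11.3 in naive CD4+, 9.6 and 9.99 in CD4+ TEM, 10.95 and 10.37 in memory, 11.76 and 12.6 in naive CD8+ and 9.32 and 9.46 in CD8+ TEM cells. Of the defining B cell markers, Pax5 stayed between 3.58 and 4.33 on every array, while Ebf1 lay between 2.93 and 5.56 on the naive and between 10.19 and 10.82 on the cultured arrays. For the Gapdh control, the signal at the 3′ end minus that at the 5′ end, a sign of RNA integrity, was between 2.42 and 2.75 on the naive and between 0.91 and 1.72 on the cultured arrays. The same measure for Actb overlapped, at 1.24 to 2.13 on the naive and 0.77 to 2.1 on the cultured arrays. The middle probe set of the 18S control read 10.96 and 10.94 in naive CD8+ cells and 11.8 to 12.37 on the other arrays. The part of any of these in the results was not tested. Naive CD8+ replicate 2 stands apart from the other 9 arrays, with Xist at 3.97 against 11.94 to 13.02. It also had the highest Lyz2, a myeloid gene, at 8.7 against 4.18 to 6.11, and the highest Ms4a1, a B cell gene, at 7.02 against 3.15 to 6.78. For Rps27l, Rpl39l, Rpl12, Rpl14, Rps6 and Rps25, calls that use naive CD8+ cells are given with and without it. In these bulk samples, fewer cells of a type and less RNA per cell cannot be told apart.

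The start of each transcript was read from the RefSeq promoter table for build GRCm38.p6, in which 40 of the 46 members have an entry. Windows reach from 15 bases before the annotated start to 15 bases after it, so the second part of each window lies in the first exon, at the head of the 5′ untranslated region. Capitals mark the longest run of a C followed by at least 5 C or T, the letters a TOP element needs. The first sequences are paralogs beside the classical gene each derives from, since the paralogs carry several of the largest changes, and the others are classical members called in at least 1 comparison and Rpl7l1. Rpl3l, called at the dim end of the array, is not shown.
Rps27 (chr3:90213634-90213663, minus strand): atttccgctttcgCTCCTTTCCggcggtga
Rps27l (chr9:66946071-66946100, plus strand): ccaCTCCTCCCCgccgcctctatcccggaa
Rpl39 (chrX:37085208-37085237, minus strand): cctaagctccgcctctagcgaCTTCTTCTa
Rpl39l (chr16:10170213-10170242, plus strand): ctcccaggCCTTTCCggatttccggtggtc
Rpl22 (chr4:152324421-152324450, plus strand): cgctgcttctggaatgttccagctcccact
Rpl22l1 (chr3:28805493-28805522, plus strand): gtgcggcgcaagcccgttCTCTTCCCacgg
Rpl7l1 (chr17:46782642-46782671, minus strand): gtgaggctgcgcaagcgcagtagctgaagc
Rpl12 (chr2:32961697-32961726, plus strand): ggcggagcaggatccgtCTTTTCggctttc
Rpl14 (chr9:120571502-120571531, plus strand): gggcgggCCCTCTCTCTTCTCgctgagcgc
Rps6 (chr4:86857353-86857382, minus strand): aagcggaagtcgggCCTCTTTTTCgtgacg
Rps25 (chr9:44407699-44407728, plus strand): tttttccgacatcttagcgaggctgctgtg
Rps27l and Rpl22 each have a further annotated start, of which only the first is shown.

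Such a run stood, at any position, in the window of 24 of the 40 members (60.0%), against 25.5% of the 27025 genes in the table. A run counted this way need not begin at the cap. The runs marked for Rps27l and Rpl39l end before the annotated start shown, outside the transcript annotated from it. The run was absent from the Rpl22, Rpl7l1 and Rps25 windows above. The letters CGGAAG, searched on both strands of the 300 bases from 250 before the start to 50 after it, stood in 28 of the 40 members (70.0%) against 18.8% of all genes. Read on the other strand these letters are CTTCCG, so a match can overlap a pyrimidine run. Members with and without the run had medians of change close to each other: -0.09 over 24 and -0.11 over 16 in CD4+ TEM against naive CD4+ cells, and 0.00 and -0.01 in CD8+ TEM against naive CD8+ cells, on the log2 scale.

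Most members gave a signal near the top of the array scale, and there the signals differed little between groups. Signals are RMA values on the log2 scale, where 1 unit is a 2-fold difference, and they compare 1 probe set between arrays, not 1 gene with another. On every array, the 33 of the 46 members that averaged at least 13 lay above the 99th percentile of all probe sets. That percentile was between 12.42 and 12.56, and Rps27l also passed it on the CD8+ TEM arrays. Single values of the 33 lay between 12.84 and 14.54. Their group means spanned 0.08 to 0.37 log2 units, with a median span of 0.15, against 0.84 over all genes. The spread between arrays of a group was also small, with a median residual SD of 0.03 against 0.205 over all genes. The median of the 33 was 13.82 and 13.83 on the naive CD4+ arrays, 13.76 and 13.77 in CD4+ TEM, 13.73 and 13.76 in memory, 13.82 and 13.8 in naive CD8+ and 13.75 and 13.76 in CD8+ TEM cells. The naive arrays were thus the higher ones, by a small margin. RMA scales the arrays to each other, so these values are relative to an array's signal and are not amounts per cell. The deposited distributions still differ a little, with array medians over all probe sets from 4.65 to 4.75. The highest value on any array was 14.86, and whether the scale is compressed near it, so that a change there reads too small, was not tested. Less bright sets of a bright member can differ from it: the set that stands for Rpl13a changed by -0.12 in CD8+ TEM cells, while sets averaging 12.72 and 12.18 rose by 0.86 and 0.98 (adjusted p = 0.00141 and 0.000666 over all probe sets). Of the 33 probe sets, 31 carry a suffix that marks sets matching more than 1 transcript.

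**Figure D1:**
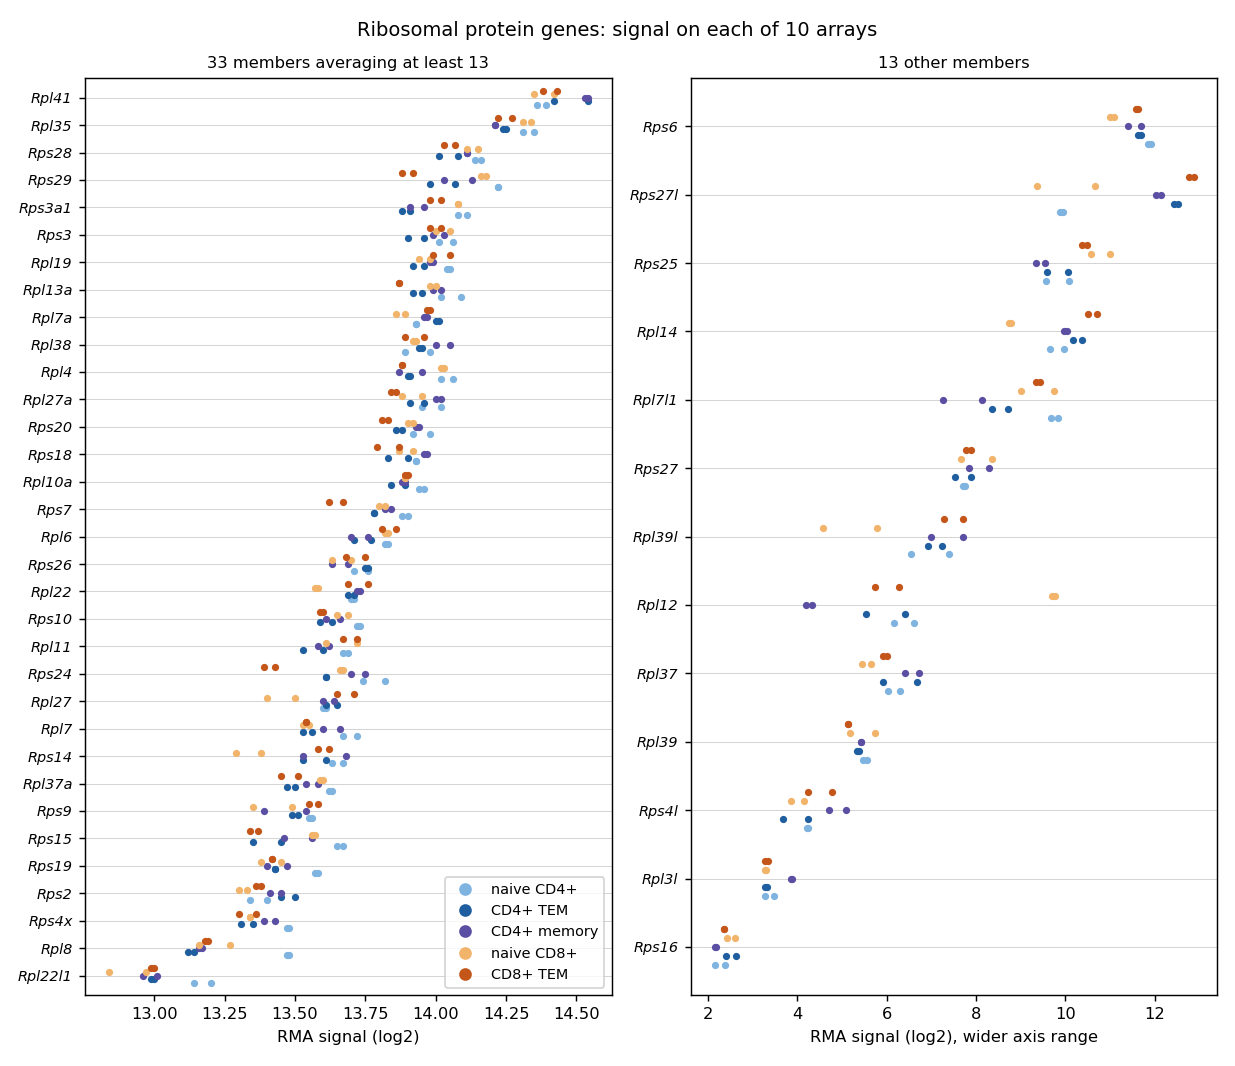
RMA signal (log2, x axis) of each of the 46 members (rows) on the 10 arrays, with 1 point per array in the color of its group; the panels have different x ranges. Between group means, the 33 members on the left stay within 0.37 log2 units, while Rps27l, Rpl12, Rpl39l, Rpl7l1 and Rpl14 on the right spread by 1.84 to 5.46 units.

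In CD4+ TEM against naive CD4+ cells, 1 member was called higher and 1 lower at an adjusted p under 0.05 (limma, Benjamini-Hochberg over all genes), against 16.4% of all genes called higher and 10.1% called lower. These were Rps27l, a paralog of Rps27 known as a target of p53, and Rpl7l1, a paralog of Rpl7 known from the making of the large subunit. The other members mostly read a little lower in TEM cells: 35 of 46 changes were below 0, with a median of -0.095 against 0.022 over all genes. Among the 33 bright members, 27 were below 0 and the changes ran from -0.34 to 0.11. The 2 TEM arrays read below both naive arrays for 28 of the 46 members and above them for 7, against 29.3% and 33.8% of all genes, and 25 of these 28 were bright members.

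Small shifts of bright members passed or missed the threshold with the estimate of the spread. The fit draws each gene's spread toward that of all genes, which gives the 33 bright members standard errors of 0.117 to 0.127, although their own arrays agreed far more closely. With a spread that depends on the signal (limma with trend and robust), 2 members were called higher and 8 lower in CD4+ TEM cells, against 17.1% and 11.1% of all genes, and 7 of these 8 were bright. Rpl8, a protein of the large subunit, read 13.47 and 13.48 in naive CD4+ cells and 13.14 and 13.12 in CD4+ TEM cells. The TEM values lie clearly below the naive ones, and the change was -0.34 with an adjusted p = 0.0723 in the first fit (SE 0.12) and 0.000872 in the second (SE 0.05). Rps15, of the small subunit, read 13.67 and 13.65 in naive and 13.45 and 13.35 in TEM cells, a change of -0.26 with an adjusted p = 0.172 and 0.00544, in the same order. Rps3a1 read 14.08 and 14.11 in naive and 13.88 and 13.91 in TEM cells, with a change of -0.20 and an adjusted p = 0.283 and 0.00549. Rps29, Rps24, Rpl7 and Rps4x were the other bright members called lower by the second fit, with changes between -0.19 and -0.15. Rpl8, Rps15, Rps3a1, Rps29 and Rps24 were named after their values were seen.

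The size of these small shifts rests on the scaling, while most bright members stayed below 0 under the 3 scalings run. Subtracting each array's median moves the median of all genes in this comparison from 0.02 to -0.13 and puts all 33 bright members below 0, with a median of -0.25. A second quantile normalization leaves 24 of the 33 below 0, with a median of -0.06. Of all called genes, 61.8% were higher in TEM cells as deposited and 48.6% after subtracting the medians. Among the 65 other genes that average at least 13, 35 were below 0 in this comparison, with a median of -0.01, and 27 lay without overlap above and 27 below the naive arrays.

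**Figure D2:**
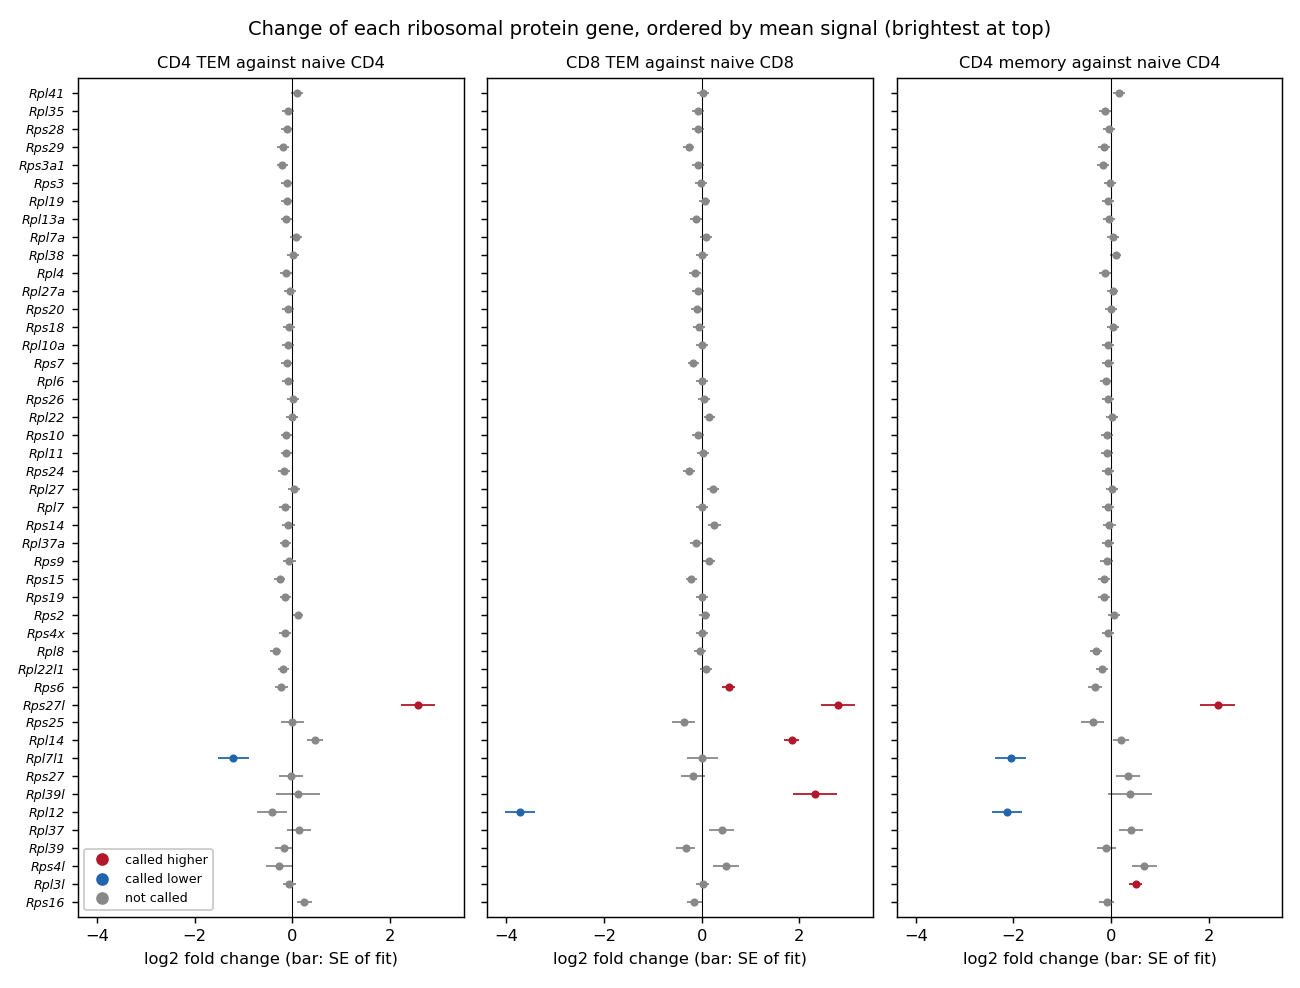
Log2 fold change (x axis) of each member against naive cells in CD4+ TEM, CD8+ TEM and CD4+ memory cells, with bars of 1 standard error of the limma fit and members in order of mean signal, the highest at the top. The rows of bright members sit near 0 in all 3 panels, and colored points are the members called at an adjusted p under 0.05.

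In CD8+ TEM against naive CD8+ cells, 4 members were called higher and 1 lower, against 20.9% and 17.2% of all genes. Rps27l, Rpl39l, Rpl14 and Rps6 rose, and Rpl12, a protein at the base of the ribosomal stalk, fell. The members as a whole were even: 23 changes were below 0 and 23 above, with a median of 0.001 against 0.056 over all genes. Without overlap, 14 members lay higher and 18 lower in TEM cells, against 38.9% and 30.7% of all genes. Of the bright members, 18 of 33 were below 0, and of the 65 other genes averaging at least 13, 16 were. With a spread that depends on the signal, 7 members were called higher and 6 lower, against 21.6% and 17.6% of all genes. The bright members among them were Rpl22, Rpl27 and Rps14, which rose by 0.16, 0.23 and 0.26 log2 units, and Rpl4, Rps7, Rps15, Rps24 and Rps29, which changed by -0.14, -0.17, -0.21, -0.26 and -0.27. Rps29 read 14.16 and 14.18 in naive CD8+ and 13.92 and 13.88 in CD8+ TEM cells, and Rps24 read 13.67 and 13.66 against 13.39 and 13.43. For both, the naive and TEM arrays did not overlap. Subtracting array medians puts 29 of the 33 bright members below 0 here, with a median of -0.1.

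The change of CD4+ cells was set against that of CD8+ cells by the difference of the changes, in which 1 member was called higher and 2 lower, against 8.03% and 4.49% of all genes. Rpl12 differed by 3.32 log2 units, Rpl14 by -1.37 and Rps6 by -0.78. Without naive CD8+ replicate 2 these were 3.35 (adjusted p = 0.0117), -1.39 (0.018) and -0.73, the last not called (0.0786). Under a spread that depends on the signal, 1 was called higher and 5 lower, against 8.84% and 6.02%, and the 3 added were Rpl39l (-2.21, adjusted p = 0.041), Rps14 (-0.34, 0.0281) and Rpl8 (-0.31, 0.0238). All 3 members called in the first fit also differed between the naive groups. In naive CD8+ against naive CD4+ cells, 2 members were called higher and 3 lower, against 13.9% and 6.65% of all genes. Rpl12 and Rps25 were higher in naive CD8+ cells, and Rpl39l, Rpl14 and Rps6 were lower.

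Between the naive groups, 40 of the 46 members and 32 of the 33 bright ones read lower in CD8+ cells, with a median of -0.059 over the members and -0.027 over all genes. Without overlap, 29 members lay lower and 3 higher, against 29.6% and 29.0% of all genes. Of the 65 other genes averaging at least 13, 57 also read lower in naive CD8+ cells, with a median of -0.14. After a second quantile normalization, 20 of the 33 read lower. With a spread that depends on the signal, 2 were called higher and 8 lower, against 14.3% and 8.03%, the bright ones being Rpl22l1, Rps14, Rpl8, Rpl7 and Rps19. Rps14 read 13.67 and 13.63 in naive CD4+ and 13.29 and 13.38 in naive CD8+ cells, without overlap, and Rpl22l1, the paralog of Rpl22, read 13.2 and 13.14 against 12.97 and 12.84.

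Between the TEM groups, no member was called. In CD8+ TEM against CD4+ TEM cells 0 of 46 were higher and 0 lower (limma), against 3.53% and 2.19% of all genes called. At an unadjusted p under 0.05 there were 2 members, and the share of all genes at that level is not given. When the spread depends on the signal, 0 were called higher and 1 lower, against 4.13% and 3.30%, and the 1 was Rps24 (-0.20, adjusted p = 0.0389). Without overlap, 13 members lay higher and 14 lower in CD8+ TEM cells, against 32.3% and 24.5% of all genes.

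In CD4+ memory against naive CD4+ cells, which share their naive arrays with the CD4+ TEM comparison, 2 members were called higher and 2 lower, against 13.5% and 9.78% of all genes. Rps27l and Rpl3l rose, and Rpl12 and Rpl7l1 fell. Of the 46 members 31 were below 0, with a median of -0.064 against 0.08 over all genes. Without overlap, 25 lay lower and 12 higher, against 24.8% and 34.3%. With a spread that depends on the signal, 3 were called higher and 6 lower, against 14.0% and 11.0%, with Rpl41 (0.16), Rps3a1 (-0.16), Rpl22l1 (-0.19), Rpl8 (-0.31) and Rps6 (-0.33) added. Rpl8 read 13.16 and 13.17 in memory cells, below both naive CD4+ arrays and beside the TEM arrays.

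In CD4+ TEM against CD4+ memory cells, 1 member was called higher and 1 lower, against 3.89% and 1.64% of all genes, and the same counts were called with a spread that depends on the signal, against 4.41% and 2.12%. Rpl12 was the higher and Rpl3l the lower. Without overlap, 10 members lay higher and 19 lower in TEM cells, against 22.7% and 26.4%.

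Rps27l rose in all 3 cultured groups, by more than any other member in CD4+ TEM, CD8+ TEM and memory cells. It read 9.94 and 9.88 in naive CD4+ cells, 12.53 and 12.44 in CD4+ TEM cells, 12.15 and 12.03 in memory cells, 9.37 and 10.66 in naive CD8+ cells, and 12.76 and 12.87 in CD8+ TEM cells. All 6 cultured arrays lay above all 4 naive ones, and the naive CD8+ pair was the widest. The rise was 2.57 log2 units in CD4+ TEM cells (5.96-fold, SE 0.35, adjusted p = 0.000946), 2.18 in memory cells (4.53-fold, SE 0.35, adjusted p = 0.00284) and 2.80 in CD8+ TEM cells (6.97-fold, SE 0.35, adjusted p = 0.000356). The changes of CD4+ and CD8+ TEM cells differed by -0.23 (SE 0.49, adjusted p = 0.833). Without naive CD8+ replicate 2, the rise in CD8+ TEM cells was 3.45 (adjusted p = 1.96e-05), the difference of the changes was -0.87 (adjusted p = 0.0309), and naive CD8+ cells read 0.54 below naive CD4+ cells (adjusted p = 0.0489), where both arrays together gave 0.10 above (adjusted p = 0.888). Both further probe sets that list Rps27l alone rose too, by 2.36 and 2.69 in CD4+ TEM, 2.04 and 2.05 in memory and 2.63 and 3.10 in CD8+ TEM cells. These sets and the set that stands for Rps27l all carry a suffix that marks sets matching more than 1 transcript.

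The partner gene Rps27 was measured by a single probe set and showed no such change. It read 7.75 and 7.72 in naive CD4+, 7.88 and 7.54 in CD4+ TEM, 7.85 and 8.29 in memory, 8.35 and 7.67 in naive CD8+ and 7.89 and 7.77 in CD8+ TEM cells. The groups overlap, and its changes in TEM cells were -0.02 (SE 0.25) in CD4+ and -0.18 (SE 0.25) in CD8+ cells, neither called. Other probe sets that list Rps27 also list further symbols and were not used, so this set does not stand for all Rps27 signal on the array.

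Rpl39l, a paralog of Rpl39 best known from male germ cells, differed mainly in naive CD8+ cells. It read 6.54 and 7.4 in naive CD4+, 7.23 and 6.93 in CD4+ TEM, 7.7 and 7 in memory, 4.58 and 5.79 in naive CD8+ and 7.29 and 7.71 in CD8+ TEM cells. Both naive CD8+ arrays lie below all others, and the CD4+ groups overlap. The rise in CD8+ TEM cells was 2.32 (4.98-fold, SE 0.45, adjusted p = 0.00373), and 2.92 without naive CD8+ replicate 2 (adjusted p = 0.00222). The difference between naive groups was -1.78 (SE 0.45, adjusted p = 0.0254). It was not called without naive CD4+ replicate 2 (adjusted p = 0.156) or naive CD8+ replicate 1 (0.125), and was -2.39 without naive CD8+ replicate 2 (0.0125). Without that array the difference of the TEM changes was -2.81 (adjusted p = 0.0233), against -2.21 with it (adjusted p = 0.0592). Rpl39 itself, whose remaining probe set is dim, stayed between 5.13 and 5.75 on all arrays and was not called. Its change in CD8+ TEM cells was -0.33 (adjusted p = 0.214), and -0.62 without naive CD8+ replicate 2 (adjusted p = 0.013). Rpl37, also left with a single dim set, stayed between 5.45 and 6.73 and was not called.

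Rpl7l1 was lower in both cultured CD4+ groups. It read 9.68 and 9.83 in naive CD4+, 8.36 and 8.72 in CD4+ TEM, 8.13 and 7.27 in memory, 9.01 and 9.74 in naive CD8+ and 9.34 and 9.43 in CD8+ TEM cells. The cultured CD4+ arrays lie below every other array, while the CD8+ groups overlap. The change was -1.21 in CD4+ TEM cells (SE 0.32, adjusted p = 0.0248), -2.06 in memory cells (SE 0.32, adjusted p = 0.00253) and 0.01 in CD8+ TEM cells (SE 0.32), and the difference of the TEM changes, -1.23, was not called (SE 0.45, adjusted p = 0.127). The TEM change was not called without either naive CD4+ replicate (adjusted p = 0.0815 and 0.121) or either CD4+ TEM replicate (0.135 and 0.0532). Its probe sets disagree: a second set read 8.79 and 8.9 in naive CD4+ and 9.29 and 9.26 in CD4+ TEM cells, and rose by 1.21 in CD8+ TEM cells (adjusted p = 0.00261 over all probe sets), and the mean of the sets changed by -0.25 in CD4+ TEM cells (adjusted p = 0.347) and by -0.90 in memory cells, where it was still called. Rpl7, the classical gene, was among the bright members and changed by -0.15 in CD4+ TEM and 0.01 in CD8+ TEM cells.

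The other paralogs moved less or were dim. Rpl3l, known from heart and skeletal muscle, read 3.47 and 3.27 in naive CD4+, 3.33 and 3.28 in CD4+ TEM, 3.86 and 3.89 in memory, 3.29 and 3.31 in naive CD8+ and 3.28 and 3.35 in CD8+ TEM cells. Only the memory arrays stand out, by 0.50 over naive CD4+ cells (adjusted p = 0.0249) and with TEM cells 0.56 below them (a change of -0.56, adjusted p = 0.0471), at the dim end of the array. The first call was not held without naive CD4+ replicate 2 (adjusted p = 0.147), memory replicate 1 (0.0586) or memory replicate 2 (0.0715), and the second was lost on leaving out any single array, with adjusted p from 0.0531 to 0.183. Rps4l, a paralog of Rps4x, was not called and read 4.21 and 4.24 in naive CD4+, 4.24 and 3.68 in CD4+ TEM, 5.1 and 4.71 in memory, 4.16 and 3.86 in naive CD8+ and 4.78 and 4.25 in CD8+ TEM cells. Rpl22l1 changed by -0.18 in CD4+ TEM, -0.19 in memory and 0.09 in CD8+ TEM cells, and Rpl22, which αβ T cell development requires, by 0.00, 0.02 and 0.16, none of them called in the first fit.

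**Figure D3:**
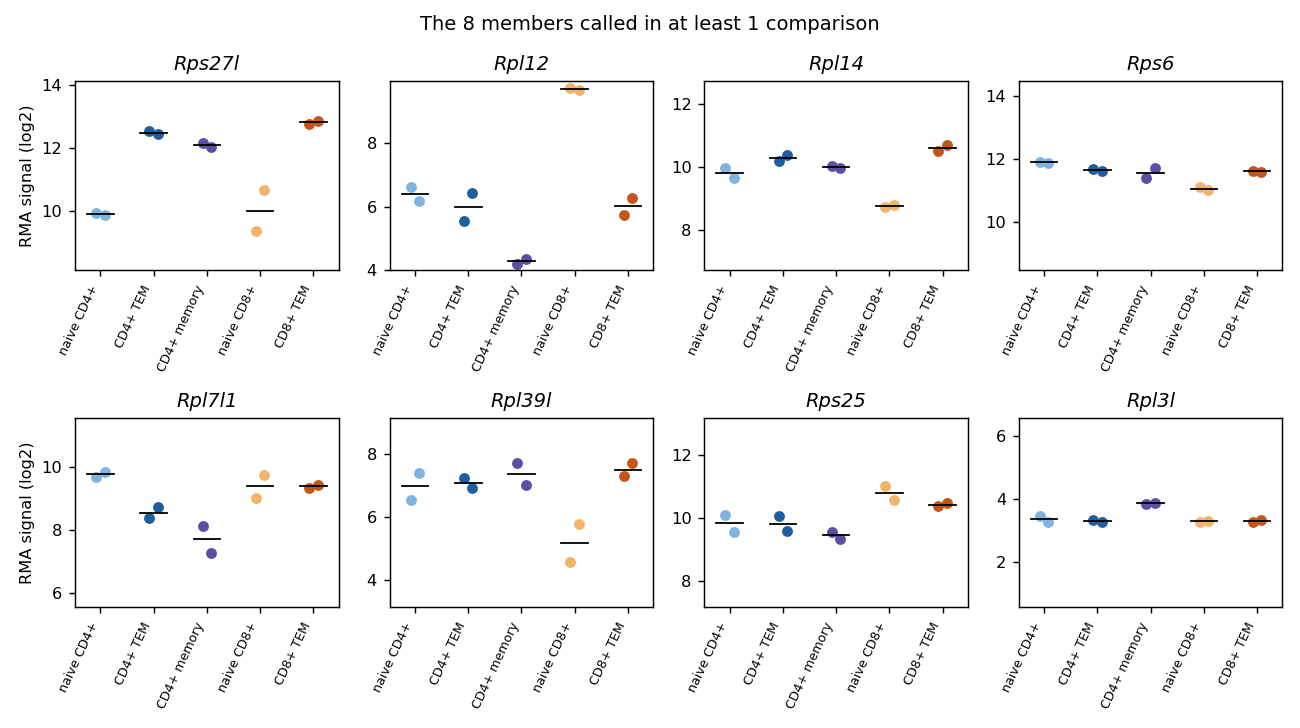
RMA signal (log2, y axis, panels of equal height) of the 8 members called in at least 1 comparison, with 1 point per array and a line at the mean of the 2 arrays of a group. Rps27l is higher in every cultured group, and naive CD8+ cells stand apart from the other groups for Rpl12, Rpl14 and Rps6.

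Rpl12, Rpl14, Rps6 and Rps25 are classical ribosomal protein genes, but each is represented by a probe set that remained after sets listing further symbols were left out, and the values below describe that set. Rpl12 read 6.62 and 6.17 in naive CD4+, 5.55 and 6.42 in CD4+ TEM, 4.19 and 4.34 in memory, 9.76 and 9.7 in naive CD8+ and 5.74 and 6.27 in CD8+ TEM cells. Naive CD8+ cells stand above and memory cells below all other groups, which overlap. The change was -3.72 in CD8+ TEM cells (13.2-fold lower, SE 0.31, adjusted p = 3.89e-05), -2.13 in memory cells (SE 0.31, adjusted p = 0.00166) and -0.41 in CD4+ TEM cells (SE 0.31, adjusted p = 0.405), and naive CD8+ exceeded naive CD4+ cells by 3.34 (SE 0.31, adjusted p = 0.000323). CD4+ TEM exceeded memory cells by 1.72 (adjusted p = 0.0172), not called without CD4+ TEM replicate 2 (0.0686) or memory replicate 1 (0.0562). Without naive CD8+ replicate 2 the CD8+ TEM change was -3.76 (adjusted p = 0.00055) and the naive difference 3.37 (0.00351).

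Rpl14 ran the other way between the naive groups. It read 9.96 and 9.65 in naive CD4+, 10.18 and 10.37 in CD4+ TEM, 10.04 and 9.98 in memory, 8.75 and 8.79 in naive CD8+ and 10.51 and 10.7 in CD8+ TEM cells. Naive CD8+ cells lie below all others and CD8+ TEM cells above all others. The rise in CD8+ TEM cells was 1.84 (3.57-fold, SE 0.16, adjusted p = 5.04e-05), and naive CD8+ cells were below naive CD4+ cells (-1.04, SE 0.16, adjusted p = 0.00297). Without naive CD8+ replicate 2 these were 1.86 (adjusted p = 0.000514) and -1.06 (0.0133).

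Rps6, the substrate of the S6 kinases downstream of mTORC1, read 11.91 and 11.86 in naive CD4+, 11.69 and 11.62 in CD4+ TEM, 11.4 and 11.7 in memory, 11.1 and 11.01 in naive CD8+ and 11.62 and 11.59 in CD8+ TEM cells. The naive CD8+ arrays are the lowest and the naive CD4+ arrays the highest, and the cultured groups overlap. It rose by 0.55 in CD8+ TEM cells (1.47-fold, SE 0.14, adjusted p = 0.0152) and was 0.83 lower in naive CD8+ than in naive CD4+ cells (a difference of -0.83, SE 0.14, adjusted p = 0.0049). The naive difference was -0.78 without naive CD8+ replicate 2 (adjusted p = 0.0222), and -0.14 and not called with the mean of both probe sets (0.504). The rise in CD8+ TEM cells was not called without naive CD8+ replicate 2 (adjusted p = 0.0596), CD8+ TEM replicate 1 (0.0816) or CD8+ TEM replicate 2 (0.0673), and with the mean of both probe sets, the second of them dim, it was 0.21 (0.234). Rps25 read 10.09 and 9.57 in naive CD4+ and 11 and 10.58 in naive CD8+ cells, without overlap, a difference of 0.96 (SE 0.24, adjusted p = 0.0252) that was not called without naive CD4+ replicate 2 (0.154) or naive CD8+ replicate 1 (0.128), and was 1.17 without naive CD8+ replicate 2 (0.0305).

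Other members known from checkpoint or disease work stayed within the narrow band. Rpl11, which with Rpl5 binds the p53 inhibitor Mdm2, changed by -0.12 in CD4+ TEM and 0.03 in CD8+ TEM cells, and Rps19, mutated in Diamond-Blackfan anemia, by -0.14 and 0.01, with standard errors of 0.12. Rpl10a, Rpl6, Rpl19, Rpl38, Rps26 and Rps28 had the narrowest spans of group means, at 0.08 to 0.1 log2 units. Rps16 stayed between 2.16 and 2.64 on all arrays, at the bottom of the scale, through a remaining probe set.

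Probe sets of 1 gene did not all move alike. The 46 members have 101 probe sets that list only the member, 55 of them beside the one that stands for the gene. Of these 55, 27 averaged at least 13, and 18 averaged under 9. Tested with all 45037 non-control probe sets, 5 of the 55 were called higher and 4 lower in CD4+ TEM cells, where 11.1% and 12.4% of all probe sets were, and 7 were higher and 8 lower in CD8+ TEM cells, where 15.3% and 16.6% were.

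Dim sets of several bright members were highest in naive CD8+ cells. A dim set of Rps10 read 5.14 and 4.47 in naive CD4+, 5.2 and 5.55 in CD4+ TEM, 5.6 and 5.12 in memory, 7.65 and 7.96 in naive CD8+ and 5.03 and 4.54 in CD8+ TEM cells. Both naive CD8+ arrays lie above all others, as they do for the Rpl12 set, and the set fell by 3.02 in CD8+ TEM cells (adjusted p = 0.000162), while the set that stands for Rps10 changed by -0.08. Dim sets of Rps18 and Rpl35 fell by 3.20 (adjusted p = 1.42e-05) and 3.62 (adjusted p = 0.00256) in the same comparison. In naive CD8+ against naive CD4+ cells, 5 of the 18 sets averaging under 9 were called higher, from 4 genes, and 2 were called lower, where 8.88% and 7.12% of all probe sets were. Both sets of Rpl41 that averaged under 10 fell in TEM cells, by 2.82 and 2.64 in CD4+ (adjusted p = 0.00614 and 0.00993) and 2.10 and 1.95 in CD8+ cells (0.0167 and 0.0272), while its bright set changed by 0.10 and 0.02. A set of Rps3 averaging 11.08 rose by 1.10 in CD4+ TEM (adjusted p = 0.0125) and 1.77 in CD8+ TEM cells (adjusted p = 0.0008), against -0.11 and -0.02 for the set that stands for Rps3.

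**Figure D4:**
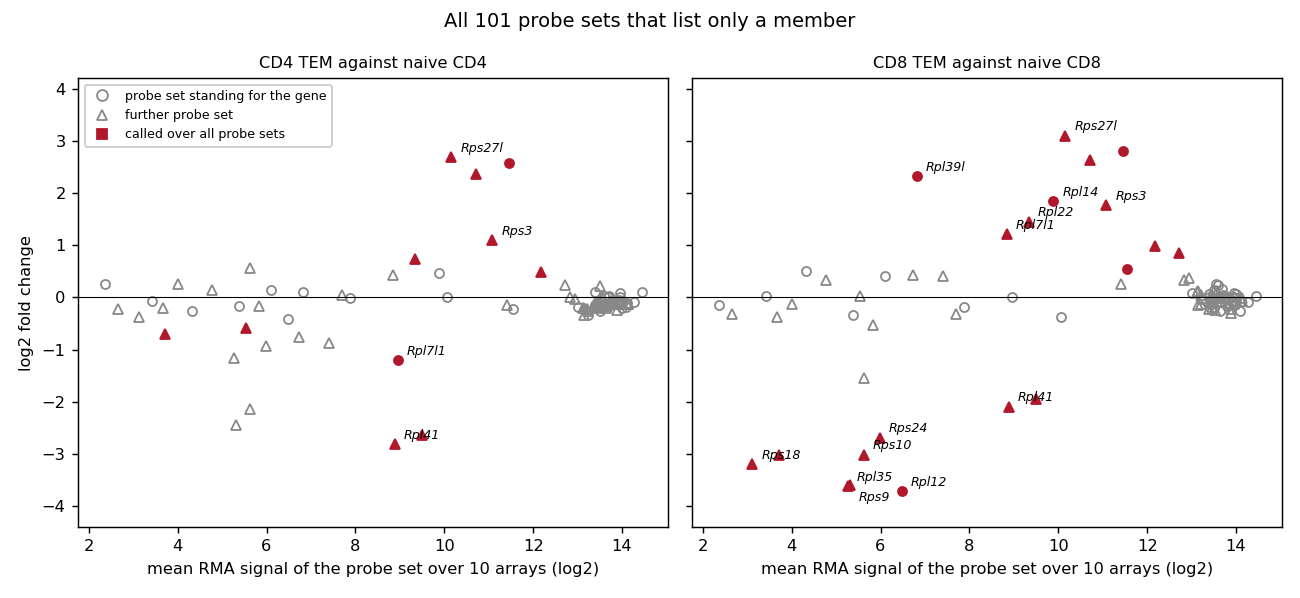
Log2 fold change (y axis) of the 101 probe sets that list only a member against their mean RMA signal (log2, x axis) in CD4+ TEM and CD8+ TEM cells; circles stand for the gene, triangles are further sets, and red marks those called over all probe sets. Sets averaging at least 13 stay near 0, and the called sets lie below that signal.

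The 109 probe sets that list a ribosomal protein symbol beside other symbols cannot be given to a gene and are described as a group. Of them 77 averaged at least 13. In CD4+ TEM cells 1 was called higher and 2 lower, where 11.1% and 12.4% of all probe sets were, with a median change of -0.08. In CD8+ TEM cells 6 were higher and 7 lower, where 15.3% and 16.6% were, with a median of -0.06.

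Genes that make or drive ribosomes were set beside the members. Of 30 measured genes of ribosome biogenesis, 1 rose and 4 fell in CD4+ TEM, 4 rose and 5 fell in CD8+ TEM, and 13 fell in memory cells, with medians of -0.08, -0.12 and -0.50. Over all genes, 16.4% were called higher and 10.1% lower in CD4+ TEM and 20.9% and 17.2% in CD8+ TEM cells. In memory cells these shares were 13.5% and 9.78%. Ubtf, a factor of ribosomal RNA transcription, changed by -1.45 in CD4+ TEM (adjusted p = 0.00202) and -1.95 in memory cells (adjusted p = 0.000537), and Nolc1, a nucleolar protein, by -1.20 and -2.10 (0.0109 and 0.000823). In CD8+ TEM against CD4+ TEM cells, 7 of the 30 were called higher, against 3.53% of all genes, with a median of 0.66. No cytosolic ribosomal protein gene was called there. In naive CD8+ against naive CD4+ cells, 11 of the 30 were also called higher and 1 lower, with a median of 0.15. Of all genes, 13.9% and 6.65% were. In the difference of the TEM changes, 0 of the 30 were called higher and 2 lower, against 8.03% and 4.49% of all genes.

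Of 23 measured genes of the mTORC1 and LARP1 pathway, 7 rose and 3 fell in CD4+ TEM, 5 rose and 7 fell in CD8+ TEM, and 5 rose and 2 fell in memory cells. The shares of all genes called higher and lower were 16.4% and 10.1%, 20.9% and 17.2%, and 13.5% and 9.78%, in the same order. The list mixes activators and repressors of the pathway, so these counts give no direction of its activity. Eif4ebp1, which encodes a translation repressor that mTORC1 inactivates, rose by 3.37 in CD4+ TEM (adjusted p = 3.3e-05), 3.26 in CD8+ TEM (2.48e-05) and 3.42 in memory cells (4.23e-05), and Rragd, encoding a GTPase that brings mTORC1 to the lysosome, by 2.88 (0.000139), 2.09 (0.000476) and 2.05 (0.00114). Larp1 read 9.3 and 9.51 in naive CD4+, 10.22 and 10.28 in CD4+ TEM, 11.09 and 11.14 in naive CD8+ and 11 and 10.77 in CD8+ TEM cells. Its change in CD4+ cells exceeded that in CD8+ cells by 1.08 (adjusted p = 0.0135), and Mtor's by 2.17 (adjusted p = 0.00183). Mtor averaged 6.98 in naive CD4+ and 8.34 in CD4+ TEM cells, and 9.45 in naive CD8+ and 8.64 in CD8+ TEM cells.

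Translation factors and mitochondrial ribosomal proteins are given by their counts, and their difference from the members was not tested. Over all genes, 20.9% were called higher and 17.2% lower in CD8+ TEM and 16.4% and 10.1% in CD4+ TEM cells. Of 19 elongation factors and other TOP mRNAs 9 were called in CD8+ TEM against naive CD8+ cells, all higher, with a median of 0.28, among them Vim (1.22, adjusted p = 0.000126), Eif3l (1.01, 0.000879) and Btf3 (0.77, 0.0033). In CD4+ TEM cells 1 rose (Vim, 1.20, 0.000224) and 1 fell (Eif3e, -0.44, 0.031). Of 23 initiation factors 13 rose and 4 fell in CD8+ TEM and 6 rose and 2 fell in CD4+ TEM cells, with Eif4e, the cap-binding protein, at 1.89 (adjusted p = 6.46e-05) and 0.91 (0.00523). Of 76 mitochondrial ribosomal proteins, which build the separate ribosome of mitochondria, 47 rose and 1 fell in CD8+ TEM and 18 rose and 1 fell in CD4+ TEM cells, with medians of 0.88 and 0.28. Of the cytosolic members, 4 of 46 and 1 of 46 rose in these comparisons, with medians of 0.001 and -0.095.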

How the data were processed

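The authors hybridized RNA of sorted T cells to Affymetrix Mouse Genome arrays and normalized the intensities by RMA with the program BRB-ArrayTools (version not given in the sources used here). The deposited table holds log2 values for 45101 probe sets, 64 of them controls, from 1.68 to 14.86. Raw intensities were not used here, so signal over background is unknown. Symbols came from the platform annotation: 34945 probe sets have 1 symbol, 932 with several and 9160 unnamed were left out, and 34741 symbols were updated through Entrez identifiers (GRCm38.p6). Each gene was read from its probe set of highest mean signal.

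All 10 arrays entered a single linear model with 1 mean per group in limma 3.58.1 (R 4.3.3), with 5 residual degrees of freedom, moderated, and adjusted by Benjamini-Hochberg over 18193 genes; a call is an adjusted p under 0.05. SE is that of the fit. Named were called members whose groups do not overlap (up to 6 each way per comparison), l paralogs and partners, Rpl5, Rpl11, Rps6, Rps19, Rpl22, the 5 widest and 5 narrowest members, members without a group mean of at least 6, and up to 3 called genes of other lists; other members were named after their values were seen. Members and lists were chosen with earlier results of these data known. Simulated data for CD4+ TEM against naive CD4+ cells held 200 changed genes among 18193. The fit called 0% of changes of 0.5 log2 units, 40% of 1 and 82% of 2, with 6.78% of calls false. In the measured data 16.4% of genes were called higher and 10.1% lower, so these rates need not hold there. Only 2 arrays per group limit the precision. The labels do not say whether replicate numbers pair the arrays. Replicate differences correlate between -0.036 and 0.029 across groups, which cannot settle it, since each rests on single arrays.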

Additional observations from a re-analysis of the deposited data

Results flagged for a closer look

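Rpl12, Rpl14 and Rps6 differed between CD4+ and CD8+ cells in their change from the naive to the TEM state, by 3.32, -1.37 and -0.78 log2 units (limma, adjusted p = 0.00336, 0.0079 and 0.0422). For Rps6 the call was lost without any one of the 8 naive and TEM arrays, with adjusted p between 0.0636 and 0.134, with the mean of all probe sets (0.57) and with a second quantile normalization (0.0534). For Rpl12 the adjusted p lay between 0.00176 and 0.0172 and for Rpl14 between 0.00296 and 0.0414 over the 18 alternatives run. Naive CD8+ replicate 2, which stands apart by Xist, is within 0.06 of replicate 1 for Rpl12.

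Probe sets that do not stand for a gene rose by at least 1 log2 unit in TEM cells. In CD4+ TEM cells these were both further sets of Rps27l, by 2.36 and 2.69, and a set of Rps3, by 1.1. In CD8+ TEM cells they were the same Rps27l sets, by 2.63 and 3.1, and sets of Rps3 (1.77), Rpl22 (1.45) and Rpl7l1 (1.21). The sets that stand for Rps3, Rpl22 and Rpl7l1 changed there by -0.02, 0.16 and 0.01. Which transcripts the differing sets read was not tested.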

How the results depend on the processing

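The counts of members called rest most on the estimate of the spread and on the probe set that stands for a gene. With a spread that depends on the signal, CD4+ TEM against naive cells gave 2 higher and 8 lower (1 and 1 as reported), CD8+ TEM 7 and 6 (4 and 1), memory cells 6 lower (2), the difference of the TEM changes 5 lower (2), naive CD8+ against naive CD4+ cells 8 lower (3), and CD8+ TEM against CD4+ TEM cells 1 lower (0). With each gene's probe sets averaged, CD4+ TEM gave 4 lower, CD8+ TEM 7 lower, memory 4 lower, the difference of changes 1 lower and the naive comparison 4 higher (2). With unmarked probe sets only, which leaves 24 members, CD4+ TEM gave 2 lower, CD8+ TEM 6 lower, the difference of changes 3 higher (1), memory 6 lower, TEM against memory 2 higher and 0 lower (1 and 1), and the naive comparison 5 higher. With genes of a group mean of at least 6, which leaves 42 members, CD4+ TEM gave 2 higher and 2 lower, memory 1 higher (2) and TEM against memory 0 lower. Subtracting array medians gave 3 lower in CD4+ TEM, 3 lower in CD8+ TEM and 1 higher in memory cells, and a second quantile normalization gave 1 higher in memory cells and 0 lower in TEM against memory cells. With only the groups compared, memory gave 1 higher, TEM against memory 0 higher and 0 lower, and the naive comparison 1 higher. Strict membership (43 members) gave 0 lower in CD4+ TEM and 1 lower in memory cells. The shares of all genes called are given above for the spread that depends on the signal. For the other settings, here and below, they are not given. Those counts show how the calls moved, not how members compare with all genes. The cause was not tested in any of these settings.

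With the replicate number as a block, the difference of changes gave 1 lower; Rps6 there (adjusted p = 0.0647) and Rpl3l in TEM against memory cells (0.0721) lost their calls. Whether the numbers pair the arrays is not stated. Leaving out 1 array at a time gave 0 to 1 lower in CD4+ TEM, 3 to 4 higher and 1 to 2 lower in CD8+ TEM, 1 to 3 lower in the difference of changes, 1 to 2 higher in memory, 0 to 1 higher and 0 lower in TEM against memory, and 1 to 2 higher and 2 to 4 lower in the naive comparison. An arm with 1 array is assumed to vary like the other groups. Without naive CD8+ replicate 2, Rps27l in naive CD8+ against naive CD4+ cells turned to -0.54 from 0.10, and without replicate 1 it was 0.75.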
